A study of Mus musculus with 18 samples.

Results

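The effect of losing *Cldn10* on the transcriptome of the medullary thick ascending limb (MTAL), the salt-reabsorbing segment of the loop of Henle, was described by comparing 3 pools of MTAL from conditional knock-out mice (cKO 16, 18 and 20) with 5 pools of MTAL from control mice (WT 11, 13, 15, 17 and 19). These are 8 of the 18 pools of the series, the others being pools of the cortical thick ascending limb (CTAL), 5 of each genotype. The cKO mice were *Cldn10* fl/fl; Ksp-Cre, with Cre expressed from the promoter of Ksp-cadherin along the whole distal nephron, and the WT mice were their *Cldn10* fl/fl littermates, so that both groups carry the floxed alleles and differ in the Cre transgene. The labels give the strain as C57BL/6J, while the study's methods describe adult male mice of a predominantly, not purely, C57BL/6 background on regular chow, and each pool of hand-dissected, liberase-treated tubules came from the outer medulla (inner stripe) of a distinct animal. The outer medulla of cKO kidneys holds calcium deposits that made the dissection difficult, and 2 further cKO MTAL pools that the study excluded after quality control were not analysed here. Levels are given as CPM, estimated counts scaled to the library total and TMM factor, and a gene was kept when 3 or more of the 8 pools reached 3 CPM, which left 12060 of 55401 genes for testing.

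In its isoform b, claudin-10 forms a pore for sodium in the junctions between thick limb cells, and the sodium that moves through this pore is driven by the voltage that transcellular salt transport through the apical cotransporter NKCC2 and the potassium channel ROMK creates. A second type of junction, built from claudin-16 and claudin-19 and silenced by claudin-14, carries calcium and magnesium, and normally lies in the cortical limb. The calcium-sensing receptor and the parathyroid hormone receptor set how much calcium this second pathway takes up.

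The 8 pools held the RNA of thick limbs. The summed level of 11 thick limb marker genes was between 52664 and 64278 CPM in the WT pools and between 69905 and 82526 CPM in the cKO pools. Total estimated counts ranged from 17967088 to 53280672 in the WT pools and from 13275232 to 19608753 in the cKO pools, and 21527 to 25255 genes were detected per pool. *Cldn10* itself (claudin-10; chromosome 14, 118787908 to 118875489, GRCm38) was at 779, 738, 781, 657 and 812 CPM in WT 11, 13, 15, 17 and 19 and at 299, 152 and 219 CPM in cKO 16, 18 and 20, the order in which pool values are given throughout. The genotypes did not overlap and the level in cKO pools fell by 1.75 ± 0.18 on the log2 scale (SE; adjusted p = 2.92e-05, edgeR's quasi-likelihood test, Benjamini-Hochberg adjusted, as are all adjusted p-values below). The study kept only cKO pools whose *Cldn10* level was significantly below that of WT. A low level was thus a condition for including a cKO pool, and the fall and its p-value are in part set by that choice. Counts were taken over the whole gene, so that remaining transcripts cannot be divided into intact and Cre-recombined ones.

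Pools stood apart in ways that the genotype labels do not name. *Xist*, the RNA that coats the inactive X chromosome, was at 7.37, 0.486, 8.69, 7.39 and 8.79 CPM in the WT pools and 0.447, 0.448 and 0.716 CPM in the cKO pools, that is above 7 CPM in 4 WT pools and below 1 CPM in WT 13 and all cKO pools, although Y-linked genes such as *Ddx3y* were at like levels in all pools (38.9, 38.5, 32.4, 38.9 and 24.2 CPM and 34.2, 32.4 and 35.4 CPM). In all, 7 genes, singled out after their values were seen, shared this pattern (lowest of the 4 pools over 2.5 times the highest of the other 4), of which *Xist*, *Gm46620* and *Serpinf1* passed the test and *Ddr2*, *Ttll7*, *Tpm2* and *Il1rl1* did not. The cKO pools also differed from each other. Proximal tubule markers were highest in cKO 18, markers of principal and intercalated cells of the collecting duct were highest in cKO 20, and leukocyte markers and processed pseudogenes were highest in cKO 16.

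**Figure D1:**
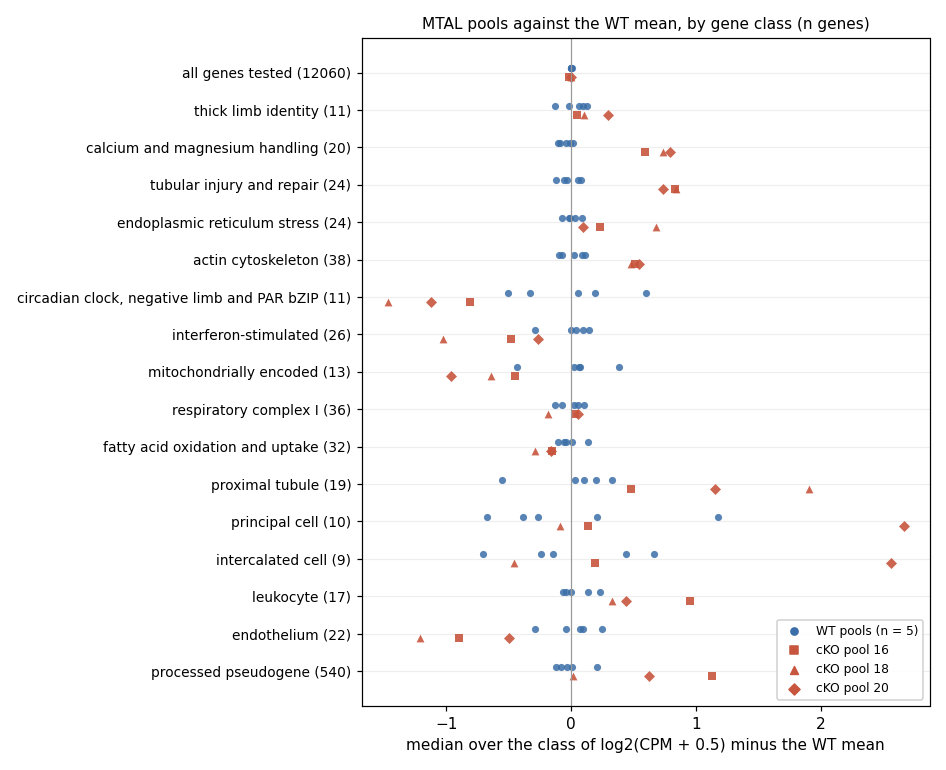
For each gene class, the median over its genes of log2(CPM + 0.5) minus the mean of the WT pools is plotted for the 5 WT pools (blue circles) and cKO 16 (square), cKO 18 (triangle) and cKO 20 (diamond), with the number of genes in brackets. Calcium handling, injury and actin genes are raised to a similar extent in all 3 cKO pools, whereas proximal tubule genes (0.48, 1.91 and 1.16), leukocyte genes (0.95, 0.33 and 0.44), processed pseudogenes (1.13, 0.01 and 0.62) and collecting duct genes differ widely between them.

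Of the 12060 genes tested, 535 were higher (4.44%) and 310 lower (2.57%) in cKO MTAL, 7.01% in all, and the median log2 fold change over all genes tested was 0.00. Among the genes that were higher, 210 changed by less than 2-fold, 268 by 2 to 4-fold and 57 by 4-fold or more. Among those that were lower, the corresponding numbers were 184, 113 and 13, so that decreases were fewer and smaller than increases. At 2-fold or more, 325 genes were higher (2.69%) and 126 lower (1.04%). Over all genes tested, the values of the genotypes did not overlap for 1734 genes (14.4%). These shares of all genes, 4.44% higher, 2.57% lower and 14.4% without overlap, stand beside each count of a gene list below. A fit with a term for the 4 pools with *Xist*, in which WT 13 is in effect the only WT reference, called 47 genes, 40 of them among the 845. In that fit 842 of the 845 genes kept their sign and the median absolute log2 fold change of the 845 was 0.90, against 1.05 without the term. Leaving out WT 15, WT 17, WT 19 or cKO 20 left 506, 550, 548 and 457 genes called.

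Of the genes tested, 56 were under 3 CPM in every WT pool and entered the test through the cKO pools, where they had to be higher, and 30 of them were called. Among the genes named here these were *Gh*, *Psca*, *Ptpn5*, *Sprr1a*, *Slc4a9*, *Bdkrb2*, *Asb11*, *Papln*, *Npas2*, *Frzb*, *Hmox1*, *Bmp6* and *Klk1b5*, whose values describe a difference that the filter required. Conversely, 140 genes were under 3 CPM in every cKO pool and entered the test through the WT pools, where they had to be higher, and 24 of them were called. Among the genes named here these included *Corin*, *Tnn*, *Rgs7*, *Stxbp5l*, *Chac1* and *Sema3d*, whose values likewise describe a difference that the filter required.

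Among the protein-coding genes called with no overlap, the 15 largest rises ranged from *Cldn14* (4.81), *Gh* (4.46) and *Psca* (4.35) to *Gpx3* (2.76) on the log2 scale. *Cldn14* was at 18.6, 19.4 and 154 CPM in the cKO pools, with cKO 20 far above the others. Leaving out single pools lowered its log2 fold change to 3.09 at the least. *Clu*, the secreted chaperone clusterin, was at 25.5, 36.8, 19.9, 28.7 and 27.2 CPM in the WT and 138, 894 and 136 CPM in the cKO pools. All cKO pools were above all WT pools and cKO 18 was far above the other two, and the log2 fold change was 3.81 ± 0.46 (SE, adjusted p = 1.30e-04) and 2.31 without cKO 18. *Ptpn5*, a brain-enriched tyrosine phosphatase, rose from 0.754, 1.63, 1.02, 0.424 and 0.854 CPM to 11.98, 5.03 and 26.9 CPM (log2 fold change 3.95, adjusted p = 3.10e-04), with cKO 20 highest. *Wnt10a*, a secreted Wnt ligand, rose from 0.870, 3.15, 1.43, 2.18 and 1.05 CPM to 16.1, 35.6 and 22.6 CPM (3.79, adjusted p = 3.88e-05). *Bdkrb2*, the bradykinin B2 receptor that binds the peptide released by kallikrein, was at 0.812, 1.78, 0.920, 0.828 and 0.653 CPM in WT and 7.66, 10.2 and 6.98 CPM in cKO pools (3.02, adjusted p = 4.47e-04). *Asb11*, a substrate receptor of cullin ubiquitin ligases, *Papln*, a matrix glycoprotein, and *Sprr1a*, a cornified envelope precursor known as an injury-induced gene in neurons, rose by 2.93, 2.80 and 3.65 on the log2 scale (adjusted p = 2.58e-04, 0.00392 and 0.00655).

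The largest falls among such genes were those of *Corin* (-2.86), *G6pc* (-2.75) and *Tnn* (-2.46). Of the genes in this paragraph, *Corin*, *Tnn*, *Chac1*, *Stxbp5l*, *Rgs7* and *Sema3d* were kept in the test through the WT pools alone. *Mfrp*, a frizzled-related membrane protein, went from 56.3, 37.3, 48.9, 55.4 and 82.9 CPM to 12.5, 12.3 and 7.76 CPM, with no overlap between genotypes (log2 fold change -2.37 ± 0.26, adjusted p = 4.76e-05). *Mfrp* shares its locus with *C1qtnf5*, whose own log2 fold change was 0.77 (adjusted p = 0.50), and reads of the pair may have been divided between them. *Pde2a*, a cGMP-stimulated phosphodiesterase, was at 24.8, 7.59, 22.7, 12.2 and 32.8 CPM in WT and 0.149, 5.03 and 6.92 CPM in cKO pools (adjusted p = 0.0491), and its call was lost in 6 of the 8 fits that left out 1 pool. *Chac1*, a glutathione-degrading enzyme, fell from 7.20, 6.96, 5.98, 3.63 and 6.98 CPM to 1.86, 1.84 and 0.955 CPM (-1.98, adjusted p = 0.0138), a call lost without cKO 20. *Zfp366*, a zinc finger gene, *Stxbp5l*, a syntaxin-binding protein, *Rgs7*, a regulator of G protein signalling, and *Sema3d*, a secreted semaphorin, fell by 1.96, 2.01, 2.25 and 1.97 on the log2 scale. Of these 4, *Zfp366* kept its call without any single pool, whereas the calls of *Rgs7*, *Stxbp5l* and *Sema3d* were lost in 1, 2 and 3 of these fits.

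**Figure D2:**
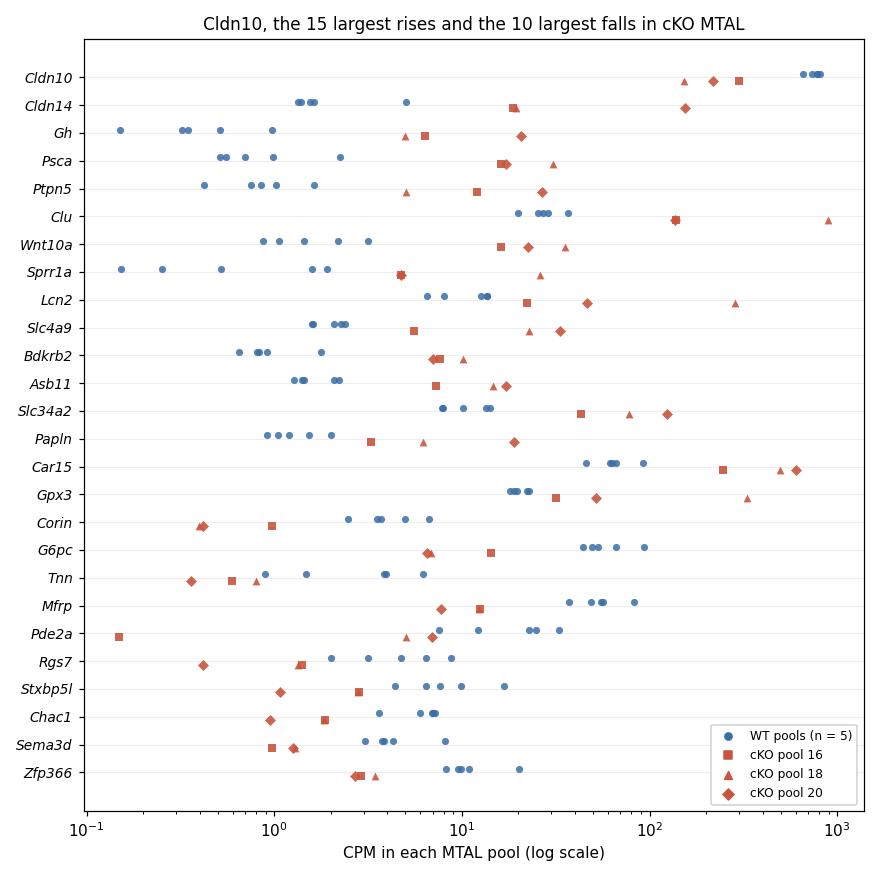
CPM on a log axis in the 5 WT pools (blue circles) and in cKO 16 (square), 18 (triangle) and 20 (diamond) for *Cldn10*, 15 protein-coding genes that rose most and 10 that fell most. The genotypes do not overlap for any of them, as the rule that chose the 25 genes required, and for *Clu*, *Lcn2*, *Sprr1a* and *Gpx3* cKO 18 lies far to the right of the other cKO pools. For *Cldn14* it is cKO 20 that lies far to the right.

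Of 20 genes of calcium and magnesium handling tested, 11 were higher and 1 was lower, against 4.44% and 2.57% of all genes, with a median log2 fold change of 0.69 beside 0.00 for all genes. Among the members other than the claudins and the receptors of parathyroid hormone, vitamin D and calcium, *Kl*, which encodes the FGF23 co-receptor Klotho, rose from 254, 219, 209, 240.1 and 229.5 CPM to 454, 560.3 and 609.5 CPM, with all cKO pools above all WT pools (log2 fold change 1.23 ± 0.12, adjusted p = 1.82e-05). *Tmem52b*, a membrane protein of the distal nephron, and *S100g*, the intracellular calcium buffer calbindin-D9k, rose by 1.15 and 2.60 (adjusted p = 8.08e-05 and 0.00186), the latter from 3.37, 2.30, 1.74, 2.85 and 1.91 CPM to 4.84, 20.2 and 19.3 CPM. *Cnnm1*, of the CNNM family of magnesium transport proteins, was the member that fell, from 61.9, 49.9, 47.4, 46.5 and 58.8 CPM to 26.6, 23.9 and 23.6 CPM (-1.10, adjusted p = 7.19e-04). The genes that make and degrade active vitamin D, *Cyp27b1* and *Cyp24a1*, were not above 1 CPM in any pool. Leaving out each pool gave 10 to 12 higher members.

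Phosphate transporters and their regulators followed. *Slc34a2*, the sodium-phosphate cotransporter NaPi-IIb, better known from intestine and lung, was at 14.0, 13.4, 7.87, 10.2 and 7.88 CPM in WT and 43.2, 78.1 and 123 CPM in cKO pools, with a log2 fold change of 2.93 ± 0.28 (adjusted p = 1.82e-05). *Slc34a1*, the proximal tubule cotransporter NaPi-IIa, was at 4.06, 3.91, 2.86, 6.58 and 1.51 CPM and 5.95, 22.2 and 31.9 CPM (2.39, adjusted p = 0.00657), with cKO 16 inside the WT range and cKO 18 and 20 above it. *Fgfr4*, a receptor for FGF23, rose by 1.36 (adjusted p = 0.00727), and with *Kl* this made 4 of 11 tested phosphate and Klotho genes higher and none lower, with a median of 0.50.

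Of 22 genes of transcellular salt transport, 5 were higher and 2 lower, beside 4.44% and 2.57% of all genes, with a median of 0.15. *Wnk1*, a kinase that regulates cation-chloride cotransporters, rose from 283, 308, 304, 273 and 275 CPM to 504, 516 and 909.7 CPM (1.16, adjusted p = 4.29e-04), and *Kcnq1*, a voltage-gated potassium channel, by 0.78 (adjusted p = 0.00335). *Fxyd2*, the gamma subunit of the sodium pump, fell from 2547, 3251, 2701, 2246 and 3070.0 CPM to 1829, 1578 and 1359 CPM (-0.80, adjusted p = 0.00292). *Kcnj1*, which encodes the apical channel ROMK, was at 986, 1173, 895, 1047 and 1248 CPM and 1280.0, 1228 and 1297 CPM and did not pass the test (adjusted p = 0.223). Among 18 potassium channels, 3 were higher and 2 lower, beside 4.44% and 2.57% of all genes. The lower were *Kcnt1*, a sodium-activated channel, with 228, 230.4, 377, 319 and 219 CPM in WT and 82.8, 62.6 and 83.2 CPM in cKO pools (-1.85, adjusted p = 3.12e-05), and *Kcnn1*, a calcium-activated channel (-0.91, adjusted p = 0.0238).

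Besides the claudins of the calcium pathway, 2 further claudins and 1 junction adhesion molecule were higher. *Cldn1* was at 3.25, 6.43, 7.16, 2.503 and 1.66 CPM in WT and 15.2, 10.95 and 13.5 CPM in cKO pools (1.65, adjusted p = 0.0298), *Cldn4* at 5.63, 1.18, 4.24, 1.998 and 2.61 CPM and 5.95, 16.5 and 9.91 CPM (1.80, adjusted p = 0.0339), and *F11r*, which encodes JAM-A, rose by 0.77 (adjusted p = 0.0315). *Mpp5*, the scaffold PALS1 of the Crumbs polarity complex, fell by 0.61 (adjusted p = 0.0182). The scaffold gene *Tjp1* (102, 96.9, 104, 99.97 and 104 CPM and 81.7, 89.0 and 86.1 CPM, adjusted p = 0.187) and occludin, *Ocln* (adjusted p = 0.631), did not pass the test, and over 29 tight junction genes 6 were higher and 2 lower, or 3 and 2 without WT 19.

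Some acid-base genes were among the rises. Of 8 carbonic anhydrases tested, 2 were higher and none lower, beside 4.44% and 2.57% of all genes, with a median of 0.08. *Car15*, a membrane-bound carbonic anhydrase, was at 65.9, 92.6, 63.0, 46.1 and 61.4 CPM in WT and 246, 496 and 606 CPM in cKO pools, the lowest cKO value being above every WT value (log2 fold change 2.77 ± 0.24, adjusted p = 9.28e-06), and it kept its call with the term for *Xist* (adjusted p = 0.0216). *Car12*, another membrane-bound member, rose by 1.59 (adjusted p = 0.00308). *Slc4a9*, the anion exchanger AE4 of intercalated cells, went from 2.38, 2.09, 1.59, 2.28 and 1.61 CPM to 5.58, 22.7 and 33.4 CPM (3.37, adjusted p = 2.23e-04). Of 21 subunits of the vacuolar proton pump 4 were higher, namely *Atp6v1b1*, *Atp6v1f*, *Atp6v0a4* and *Atp6v0d2* (1.39, 0.98, 0.56 and 1.86), and none was lower, or 2 of 21 without WT 19. Of 9 intercalated cell markers tested, 3 were higher, with a summed level of 79.0 to 233 CPM in WT and 197 to 632 CPM in cKO pools. *Slc26a4* (pendrin) reached 27.3 CPM in cKO 20 and was at or below 3.20 CPM in every other pool. Without cKO 20 the median of the intercalated list was -0.24 and 1 member was higher, and the part of intercalated cells in the acid-base result was not tested.

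Of 11 urea and osmolyte genes tested, 1 was higher and 2 lower, beside 4.44% and 2.57% of all genes, with a median of -0.33. *Slc14a2* and *Slc14a1*, which encode the urea transporters UT-A and UT-B, fell from 63.1, 41.0, 69.3, 25.3 and 32.9 CPM to 19.1, 10.801 and 7.40 CPM and from 10.793, 6.999, 10.3, 15.5 and 12.95 CPM to 5.28, 4.63 and 3.28 CPM (-1.90 and -1.36, adjusted p = 0.00415 and 0.0259), without overlap. UT-A is a marker of thin limbs and inner medullary ducts and UT-B of descending vasa recta, and in these bulk samples fewer cells of a type and less RNA per cell cannot be told apart. *Arg2*, the mitochondrial arginase that releases urea from arginine, rose from 4.87, 10.1, 5.93, 5.07 and 2.41 CPM to 16.7, 59.0 and 27.7 CPM (2.59, adjusted p = 0.00109). Over all 197 solute carriers tested, 19 were higher and 9 lower, beside 4.44% and 2.57% of all genes. They included *Slc22a17*, a receptor for lipocalin-2 (1.56, adjusted p = 1.89e-04), *Slco2a1*, a prostaglandin transporter (1.91, adjusted p = 3.89e-04), the glucose cotransporter *Slc5a1* (0.90, adjusted p = 0.00224), and 2 monocarboxylate transporters in opposite directions, *Slc16a5* (1.02) and the highly expressed *Slc16a7* (-0.78).

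Of 24 markers of tubular injury and repair tested, 11 were higher and none lower, beside 4.44% and 2.57% of all genes. For 13 of them all cKO pools were above all WT pools, beside 14.4% of all genes without overlap in either direction. The median log2 fold change was 0.97, and the summed level was 2325 to 2679.6 CPM in WT and 3955 to 11098 CPM in cKO pools. *Spp1*, the matrix protein osteopontin that binds calcium crystals, was at 1048, 1246, 1055, 1022 and 1152 CPM in WT and 2078, 7899 and 1975 CPM in cKO pools (1.85 ± 0.32, adjusted p = 0.00257). *Lcn2*, the injury marker NGAL, was at 6.50, 13.6, 12.6, 8.05 and 13.6 CPM and 22.3, 284 and 46.3 CPM (3.44, adjusted p = 0.00135, and 1.66 without cKO 18). cKO 18 was highest for both, and cKO 16 and 20 also lay above every WT pool. *Lgals3*, galectin-3, rose evenly, from 53.6, 32.9, 30.8, 34.8 and 45.5 CPM to 135, 171 and 129 CPM (1.88 ± 0.17, adjusted p = 1.43e-05). The epithelial keratins *Krt18* and *Krt19* rose by 1.38 and 2.17, the stress cytokine *Gdf15* by 2.17 and the calcium-binding protein *S100a6* by 1.22. *Havcr1*, the proximal tubule injury marker KIM-1, was too low to be tested, at no more than 0.141 CPM in the WT pools and 0.298, 6.42 and 0.119 CPM in cKO 16, 18 and 20. Leaving out each pool gave 8 to 11 higher injury markers.

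The chaperones of the endoplasmic reticulum rose in part. Of 24 genes, 9 were higher and 1, *Chac1*, lower, with a median of 0.37. *Hspa5* (BiP) went from 411, 327, 318, 309 and 393 CPM to 528, 777 and 481 CPM (0.76, adjusted p = 0.00709) and *Calr*, calreticulin, from 401, 422, 403, 364 and 493 CPM to 550.5, 837 and 650.4 CPM (0.71, adjusted p = 0.00582), and *Hyou1*, *Pdia3*, *Pdia4*, *Pdia6* and *Dnajb11*, folding factors of the same compartment, rose by 0.51 to 0.77 on the log2 scale. cKO 18 was the highest pool for each of these genes, and without it 4 members were higher, 2 lower and the median was 0.13. The transcription factors of the stress arms, *Atf4* (-0.03, adjusted p = 0.937) and *Ddit3* (-0.07, adjusted p = 0.898), did not pass the test, nor did any of 16 cytosolic heat shock genes or 13 hypoxia response genes. At an unadjusted p under 0.05 in edgeR there were 2 and 5 of these, DESeq2's Wald test called 1 and 2, and limma on TPM called 0 of each. Among 36 genes of oxidative stress defence, *Gpx3*, the secreted glutathione peroxidase, rose from 19.6, 22.7, 18.9, 22.3 and 18.1 CPM to 31.6, 330.0 and 52.0 CPM, the excess being largest in cKO 18 (2.76, adjusted p = 0.00314, and 1.04 without it). *Gpx6*, a homologous peroxidase, fell from 348, 329.9, 348, 302 and 339.8 CPM to 174, 164 and 168 CPM with little spread within the genotypes (-0.98 ± 0.11, adjusted p = 4.76e-05), *Hmox1*, heme oxygenase 1, rose by 1.61 (adjusted p = 0.0205), and catalase, *Cat*, fell by 0.42 (adjusted p = 0.0442).

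Actin cytoskeleton genes rose to a like extent in the 3 cKO pools, with 19 of 38 higher, none lower, a median of 0.54, and a summed level of 4093 to 4877 CPM in WT and 6360.5 to 6838 CPM in cKO pools. *Tagln2*, transgelin-2, an actin-bundling protein, was at 32.2, 31.6, 29.4, 32.5 and 32.6 CPM and 80.9, 82.7 and 61.8 CPM (1.25 ± 0.14, adjusted p = 7.74e-05). *Flna*, the crosslinker filamin A, was at 108, 99.9, 99.2, 93.5 and 102 CPM and 216, 253 and 151 CPM (1.04, adjusted p = 3.51e-04), and *Arpc1b*, a subunit of the Arp2/3 nucleator, at 45.7, 28.9, 28.0, 28.2 and 30.3 CPM and 76.6, 60.9 and 93.3 CPM (1.26, adjusted p = 7.52e-04). The genotypes did not overlap for any of the 3, nor for *Actb* (0.77) or *Cfl1*, cofilin (0.61). *Tmsb10* and *Tmsb4x*, the actin-sequestering thymosins, were by contrast highest in cKO 16 (169.7, 73.5 and 81.5 CPM and 298, 107 and 165 CPM in cKO 16, 18 and 20), the pool with the highest level of processed pseudogenes, and the part of pseudogene reads in their result was not tested. Leaving out each pool gave 12 higher members without WT 15 and 13 to 20 without each of the others. Beside actin, 3 of 13 tubulins were higher, of which *Tubb2b* (12.6, 19.2, 8.95, 11.4 and 11.9 CPM and 56.8, 62.32 and 84.8 CPM, 2.40 ± 0.22, adjusted p = 1.43e-05) and its close paralogue *Tubb2a* (1.24, adjusted p = 1.96e-04) may share reads.

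Matrix receptors and basement membrane genes also changed. Of 17 integrins 6 were higher and 1 lower. *Itgav*, the alpha-V subunit, rose from 171, 179, 204, 205 and 187 CPM to 276, 321 and 265 CPM (0.60, adjusted p = 0.00446) and *Itgb3*, a partner subunit, from 1.04, 3.19, 1.59, 1.09 and 1.51 CPM to 6.55, 4.58 and 5.07 CPM (1.66, adjusted p = 0.0346), whereas *Itga9* fell from 18.5, 9.28, 28.9, 20.6 and 19.6 CPM to 5.21, 4.73 and 7.40 CPM (-1.74, adjusted p = 0.00616). The collagen IV chains *Col4a1* and *Col4a2* and *Col18a1* rose by 0.75, 0.68 and 0.88, and 4 of 17 collagens were higher in all, or 2 without WT 15, WT 19 or cKO 20. The 6 higher integrins were 2 without WT 11, WT 15, WT 19 or cKO 16 and 3 without WT 17. *Lama1*, the laminin alpha-1 chain of tubular basement membrane, fell from 38.1, 49.7, 44.7, 24.4 and 37.1 CPM to 14.4, 13.7 and 6.68 CPM without overlap (-1.74 ± 0.28, adjusted p = 0.00142). All 3 kallikreins tested were higher, led by *Klk1*, the tissue kallikrein that frees bradykinin, at 535, 473, 371, 385 and 406 CPM and 932, 1067 and 1264 CPM (1.33 ± 0.14, adjusted p = 3.12e-05), and *Klk1b5* and *Klk1b11* are near-identical copies whose values cannot be separated from it with certainty. Of 7 chemokines 4 were higher, *Cx3cl1*, *Cxcl16*, *Ccl28* and *Cxcl10* (0.99, 1.15, 1.498 and 1.61), or 2 without WT 17.

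Signalling genes changed in both directions. Of 22 Wnt genes, 5 were higher and 2 lower. Besides *Wnt10a*, the secreted inhibitors *Sfrp1* (49.0, 62.6, 51.1, 31.7 and 41.0 CPM and 168, 147 and 280.1 CPM, 2.08, adjusted p = 3.06e-05) and *Frzb* (2.54, adjusted p = 0.00208) rose, as did the receptor *Ror2* (1.33) and the polarity gene *Vangl2* (1.81), and the ligand *Wnt7b* (-0.76) and the co-receptor *Lrp6* (-0.60) fell. In the growth hormone and IGF axis, 2 of 18 genes were higher and 3 lower, beside 4.44% and 2.57% of all genes, with a median of 0.05. *Igf1* fell from 23.4, 29.1, 31.3, 38.5 and 36.0 CPM to 10.6, 9.90 and 4.66 CPM without overlap (-1.92 ± 0.28, adjusted p = 5.69e-04), *Irs1*, the insulin receptor substrate, fell by 1.005, and *Igfbp4*, an IGF-binding protein, rose from 6.38, 6.60, 5.27, 6.30 and 8.39 CPM to 16.8, 38.4 and 22.6 CPM (1.98, adjusted p = 4.47e-04). The receptor genes *Ghr* and *Igf1r* did not pass the test (0.03 and -0.21, adjusted p = 0.912 and 0.300). In the TGF-beta and BMP group of 41 genes, 5 were higher and 3 lower, beside 4.44% and 2.57% of all genes, with a median of 0.00 and 20 positive and 21 negative changes, among them *Bmp6* (1.71) and the activin subunit *Inhba* (1.74) upwards and the co-receptor *Tgfbr3* (-1.02) downwards.

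Several repressor and output genes of the circadian clock were lower. In the clock, BMAL1 (*Arntl*) with CLOCK or NPAS2 activates genes through E-boxes, among them the repressors PER, CRY and REV-ERB and the PAR bZIP factors DBP, TEF and HLF, the last of which bind D-boxes. The RefSeq promoters (GRCm38.p6, a short window around the start) of *Per3* (chr4:151044616-151044915, minus strand) and of the upstream start of *Tef* (chr15:81802423-81802722, plus strand) are shown because they are the 2 of the 5 lowered genes whose promoters hold such letters, with exact matches in capitals.
*Per3*: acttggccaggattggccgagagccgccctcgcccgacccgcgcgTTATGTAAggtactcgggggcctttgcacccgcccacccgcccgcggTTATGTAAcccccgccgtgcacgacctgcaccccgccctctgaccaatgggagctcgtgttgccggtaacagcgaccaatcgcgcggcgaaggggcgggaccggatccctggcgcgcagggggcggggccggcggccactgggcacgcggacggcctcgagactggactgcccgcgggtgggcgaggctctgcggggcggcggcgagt
*Tef*: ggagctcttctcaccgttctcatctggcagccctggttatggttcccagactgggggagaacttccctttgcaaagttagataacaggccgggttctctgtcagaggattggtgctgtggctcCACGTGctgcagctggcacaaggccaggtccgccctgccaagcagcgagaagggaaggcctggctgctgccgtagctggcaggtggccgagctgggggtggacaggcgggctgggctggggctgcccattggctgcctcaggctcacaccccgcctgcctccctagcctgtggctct
The *Per3* promoter holds 2 D-boxes (TTATGTAA, or TTACATAA on the other strand) and the *Tef* promoter 1 E-box (CACGTG, the same on both strands). Searched on both strands, the E-box was found in promoters of 4 of 10 genes of the repressor and PAR bZIP list that had a promoter in the table and in 7.15% of all 32851 promoters, and the D-box in 1 of 10 and 0.938%. The 10 genes had 12 promoters, so a share of genes stands here beside a share of promoters. In the activating list, 1 of 6 genes held an E-box, namely *Cry1*, and 0 held a D-box. The promoters of the lowered genes *Nr1d2*, *Dbp* and *Hlf* held neither. The other genes of this list with an E-box, *Per1*, *Ciart* and *Bhlhe41*, were not among the lowered genes. These are matches of letters in a short window and no measure of binding.

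Of 11 repressor and PAR bZIP genes tested, 5 were lower and none higher, with a median log2 fold change of -1.21. *Cry1*, although it encodes a repressor, and *Nfil3* were listed with the activating limb and are not among the 11. *Nr1d2*, which encodes REV-ERB-beta, was at 160.1, 137, 181, 242 and 164 CPM in WT and 90.2, 69.7 and 69.6 CPM in cKO pools (-1.21 ± 0.17, adjusted p = 4.92e-04). *Tef* was at 181, 142, 148, 225 and 118 CPM and 84.7, 52.6 and 75.4 CPM (-1.20, adjusted p = 0.00208), and *Per3* at 16.4, 17.3, 21.7, 37.0 and 16.7 CPM and 10.9, 6.82 and 5.91 CPM (-1.48, adjusted p = 0.0121). *Dbp* and *Hlf* fell by 1.47 and 1.74 (adjusted p = 0.0166 and 0.0178). None of these 5 overlapped between the genotypes, although WT 17 was far above the other WT pools for *Dbp* and *Hlf* (95.7, 53.8, 72.2, 169 and 66.0 CPM and 9.86, 9.56, 15.3, 31.3 and 10.9 CPM in the WT pools). *Per2* and *Ciart* were just short of the threshold (-1.28 and -2.07, adjusted p = 0.0518 and 0.0505) and *Per1* was at 75.4, 74.9, 78.2, 64.8 and 41.5 CPM and 74.9, 74.1 and 91.2 CPM (adjusted p = 0.419). In the activating limb, *Npas2* rose from 0.464, 1.29, 0.614, 0.505 and 1.86 CPM to 4.47, 9.01 and 3.94 CPM (2.61, adjusted p = 0.00692; kept in the test through the cKO pools alone), and *Arntl* was at 4.70, 8.97, 9.36, 2.18 and 10.3 CPM and 9.15, 17.4 and 22.3 CPM (1.20, adjusted p = 0.0975). The hour of dissection of each pool is not given in the sources used here and could not be entered in a fit. Leaving out each pool gave 2 lower members without cKO 20 and 4 to 7 without each of the others.

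**Figure D3:**
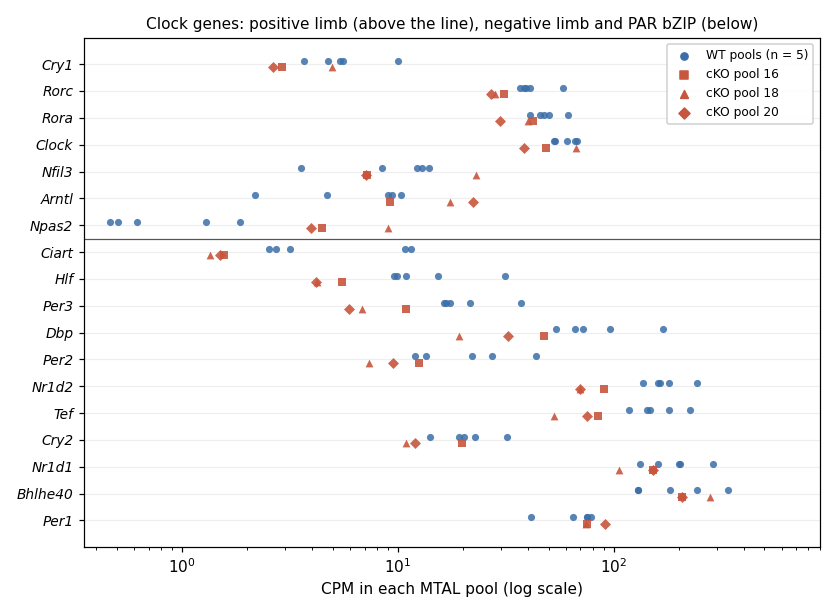
CPM on a log axis in the WT pools (blue circles) and in cKO 16 (square), 18 (triangle) and 20 (diamond) for 7 clock genes listed with the activating limb (above the line) and 11 repressor and PAR bZIP genes (below it). The 7 include *Cry1*, which encodes a repressor, and *Nfil3*. All cKO pools lie to the left of all WT pools for 6 of the 11, and to the right for *Npas2*.

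Transcripts encoded by the mitochondrial genome were lower. Of 13 mitochondrial protein-coding genes, 7 were lower and none higher (median -0.63), with summed levels of 136698 to 249387 CPM in WT and 101751 to 139979 CPM in cKO pools. *mt-Nd2* was at 14721, 9639.9, 13687, 17507 and 15443 CPM and 9113, 8594 and 6072 CPM (-0.84, adjusted p = 0.00943) and *mt-Co3* at 15879.5, 11536, 14188, 16076 and 17061 CPM and 11249, 9392 and 6463 CPM (-0.73, adjusted p = 0.0163). WT 13 was the lowest WT pool and close to cKO 16 for both. No member was called without cKO 20, 2 without WT 19, 3 without WT 15 and 10 without WT 13. Among nuclear genes, none of 36 complex I genes, 17 ATP synthase genes or 20 TCA cycle genes passed edgeR's quasi-likelihood test at an adjusted p under 0.05, where 3, 1 and 3 had an unadjusted p under 0.05 and DESeq2's Wald test and limma called 0. Of 27 genes of complexes II to IV 1 was lower, *Cox7a1*, from 22.1, 16.1, 20.4, 12.5 and 14.3 CPM to 7.14, 6.42 and 3.82 CPM (-1.56, adjusted p = 0.00616). *Ucp2*, a mitochondrial carrier of the uncoupling protein family, rose (1.44 ± 0.12, adjusted p = 7.52e-06).

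Fatty acid uptake and its regulators were lower in part. *Lpl*, lipoprotein lipase, went from 1110.1, 1049, 1056, 1117 and 1356 CPM to 505, 469.5 and 511 CPM, with little spread within either genotype (-1.20 ± 0.12, adjusted p = 2.37e-05). *Acsl1*, a fatty acyl-CoA synthetase, *Ppargc1a*, the coactivator of mitochondrial biogenesis PGC-1-alpha, and *Ppara*, a nuclear receptor for fatty acids, fell by 0.67, 0.65 and 1.14 (adjusted p = 0.00653, 0.0167 and 0.0234). *Cd36* and *Fabp4* fell too (-1.07 and -1.03), both of which capillary endothelium also expresses, while *Acsl5* and *Acaa1b* rose (1.24 and 1.97). Of 32 genes of the group, 6 were lower and 2 higher, and its median was -0.21. In a fit of TPM values its median was 0.01, where the median of protein-coding genes had moved from -0.01 to 0.18. Of 30 nuclear receptors 1 was higher and 4 lower, beside 4.44% and 2.57% of all genes, with a median of -0.06. Besides *Ppara* and *Nr1d2* the lower ones were *Esrrg*, a driver of oxidative metabolism, and *Nr3c1*, the glucocorticoid receptor (-0.44 and -0.50). In sulfate activation, *Papss2*, which makes the sulfate donor PAPS, fell from 158, 136, 189.9, 244 and 148 CPM to 60.4, 46.0 and 48.6 CPM and *Sult1c2*, a sulfotransferase, from 87.8, 108, 91.5, 80.5 and 76.3 CPM to 47.6, 33.7 and 26.9 CPM (-1.76 and -1.30, adjusted p = 3.69e-05 and 4.47e-04), while *Papss1* rose by 0.51. Of 24 cholesterol genes 3 were higher, beside 4.44% of all genes, among them *Fdps* and *Mvd*, enzymes of sterol synthesis (1.20 and 1.27).

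Some interferon-stimulated genes were lower, with 6 of 26 down, 1 up and a median of -0.63. *Ifit2* was at 54.9, 50.0, 65.5, 68.3 and 71.7 CPM and 37.8, 30.3 and 30.6 CPM (-0.92, adjusted p = 0.00333), *Sp100*, a nuclear body protein, fell by 1.58 and the guanylate-binding protein *Gbp9* by 1.68. *Irf7*, a regulator of the response, did not pass the test (-0.09, adjusted p = 0.909), and *Cxcl10* was the member that rose. Without WT 17, cKO 18 or cKO 20 there were 2 lower members and without WT 15 there were 3. Endothelial markers were lower as well. Of 22 tested 8 were lower, none was higher, and all 22 had a negative log2 fold change (median -0.84), with summed levels of 626 to 871 CPM in WT and 354 to 563 CPM in cKO pools and no defining marker at 0. *Cdh5*, VE-cadherin, was at 41.3, 32.8, 40.2, 38.4 and 48.6 CPM and 17.9, 16.7 and 13.2 CPM (-1.34 ± 0.19, adjusted p = 4.47e-04) and *Ptprb*, an endothelial phosphatase, at 77.2, 68.1, 86.5, 94.5 and 84.4 CPM and 43.5, 27.7 and 34.4 CPM (-1.23, adjusted p = 3.51e-04). The genotypes did not overlap for either. *Notch4* and *Hey2*, endothelial Notch genes, fell by 1.14 and 1.87. The part of endothelial cells in the falls of *Cd36*, *Fabp4*, *Slc14a1*, *Itga9* and the interferon genes was not tested. The 8 endothelial calls were 5 without WT 19 and 6 to 9 without each of the other pools.

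Markers of some other tubule segments were higher in the cKO pools. Of 19 proximal tubule markers tested, 11 were higher, none was lower, the median was 1.47, and the summed level was 218 to 378 CPM in WT and 535 to 1294 CPM in cKO pools. *Ggt1*, gamma-glutamyltransferase, was at 123, 89.6, 61.4, 104 and 86.7 CPM and 229.5, 404 and 299 CPM (1.75, adjusted p = 5.66e-05) and *Napsa*, an aspartic protease, at 21.8, 20.4, 12.3, 17.2 and 24.9 CPM and 42.0, 102 and 80.6 CPM (1.96, adjusted p = 2.12e-04). *Lrp2*, megalin, overlapped between genotypes (19.8, 7.76, 11.6, 10.96 and 16.6 CPM and 8.33, 34.9 and 28.9 CPM, adjusted p = 0.180), and the defining transporters *Slc5a12* and *Slc2a2* were below 1 CPM in every pool. None of 10 principal cell markers was called by edgeR's quasi-likelihood test, DESeq2's Wald test or limma (6 had an unadjusted p under 0.05 in edgeR's quasi-likelihood test). Their summed levels were 104 to 416 CPM in WT and 164 to 1206 CPM in cKO pools, the highest of each being WT 11 and cKO 20, while cKO 16 and 18 lay inside the WT range. Of 4 distal convoluted and connecting tubule markers tested, *Kl*, *Klk1* and *S100g* were higher, whereas *Slc12a3*, the defining cotransporter of the convoluted tubule, was below 6 CPM in every pool. The 11 proximal tubule calls were 7 without WT 15, cKO 18 or cKO 20. The part of these segments in the rises given above was not tested.

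Leukocyte markers and processed pseudogenes were highest in cKO 16. Of 17 leukocyte markers 5 were higher, with summed levels of 292 to 379.6 CPM in WT and 365 to 692 CPM in cKO pools. *Spi1*, a myeloid transcription factor, was at 12.6, 15.5, 11.9, 9.89 and 10.7 CPM and 64.7, 16.7 and 23.7 CPM (1.53, adjusted p = 0.0116) and *S100a9*, a neutrophil calcium-binding protein, at 14.3, 18.1, 10.9, 8.44 and 11.3 CPM and 72.3, 15.4 and 27.2 CPM, whereas *Ptprc*, the common leukocyte antigen CD45, was at 8.36, 5.81, 8.74, 7.75 and 8.23 CPM and 15.3, 7.37 and 13.8 CPM and did not pass (adjusted p = 0.216). Of 24 MHC genes 4 were higher, all overlapping between genotypes and highest in cKO 16. Among 540 processed pseudogenes, copies of spliced transcripts without introns, 61 were higher and none lower (median 0.69), against 461 higher and 287 lower of 11115 protein-coding genes (median -0.01). Without cKO 16 no leukocyte marker, no MHC gene and 3 pseudogenes were higher, and without cKO 18 the numbers were 6, 6 and 201. Leaving out WT 19 gave 2, 0 and 6, and WT 15 gave 3, 0 and 10. For 153 pseudogenes named after a tested parent gene, 14 were higher and none lower, with a median of 0.40, while 1 of the 120 parents was higher, with a median parent change of 0.06. Pseudogenes share sequence with their parents and how reads mapping to both were divided is not given in the sources used here, so their values are uncertain. Of 277 long noncoding RNAs, 5 were higher and 17 lower (median -0.20), among them *Gm5524* (-1.86, adjusted p = 0.00434).

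In several large gene classes few genes were called. Of 82 ribosomal protein genes 1 was higher and 1 lower, and none of 66 translation factors, 42 proteasome genes or 17 cell cycle genes was called by edgeR's quasi-likelihood test at an adjusted p under 0.05. At an unadjusted p under 0.05 there were 7, 5 and 2 of these, DESeq2's Wald test called 1, 0 and 1, and limma called 0 of each. Of 304 zinc finger genes with *Zfp* symbols, 1 was higher and 5 lower, but 221 had a negative and 83 a positive log2 fold change (median -0.24), and all cKO pools were below all WT pools for 38 and above them for 3, beside 14.4% of all genes without overlap. In a fit of TPM values their median was 0.02, where the median over all genes had moved to 0.19. Of 23 Hox genes, which keep positional identity, *Hoxd8* and *Hoxd9* were higher (0.80 and 0.57), beside 4.44% of all genes.

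**Figure D4:**
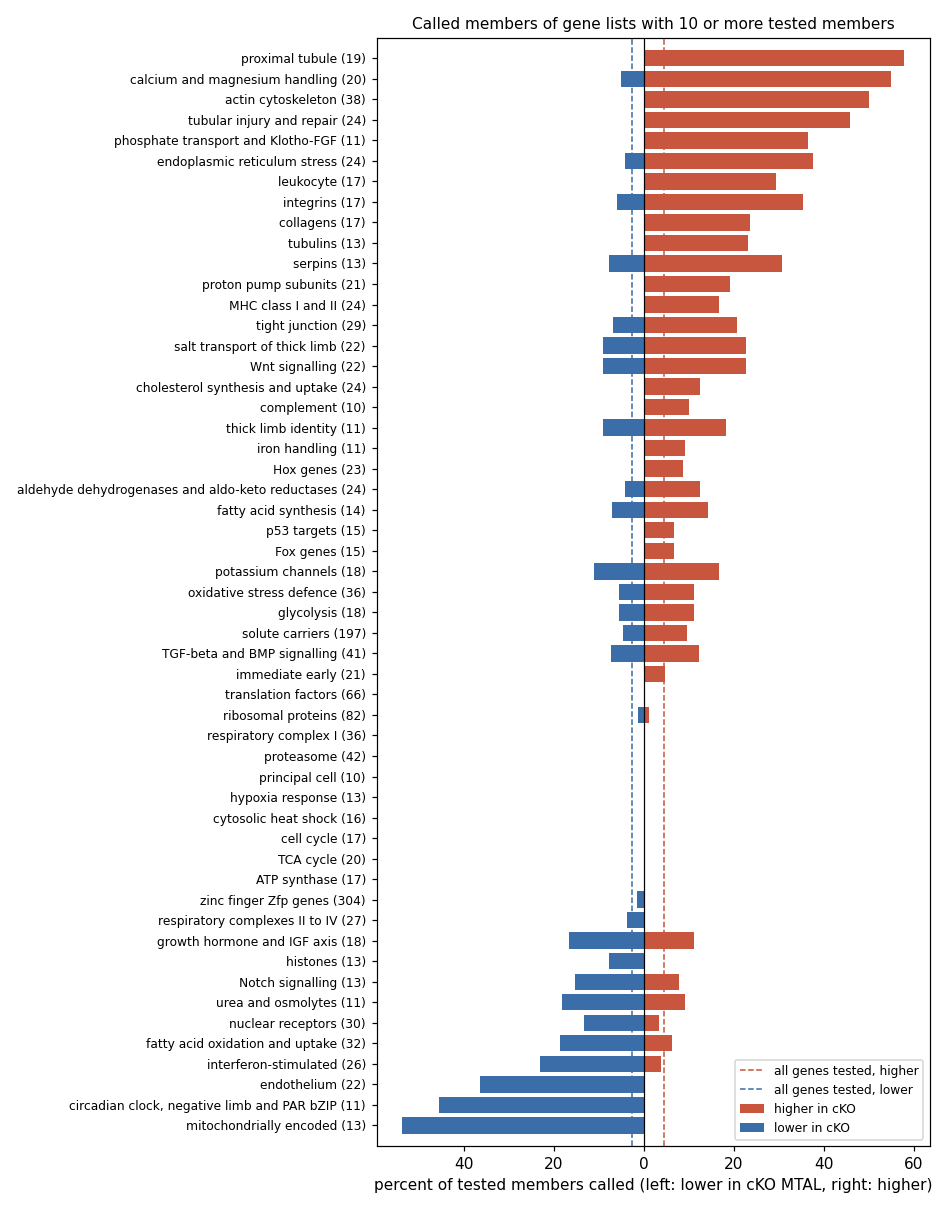
Percent of tested members called higher (right, red) and lower (left, blue) in cKO MTAL for each gene list with 10 or more tested members, with the number tested in brackets. Dashed lines mark the share of all genes tested, 4.44% higher and 2.57% lower. Proximal tubule (11 of 19), calcium and magnesium (11 of 20), actin (19 of 38) and injury genes (11 of 24) reach farthest to the right, and mitochondrially encoded (7 of 13), clock repressor (5 of 11) and endothelial genes (8 of 22) farthest to the left.

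The same comparison in the cortical limb, 5 cKO against 5 WT pools that are separate from the medullary ones, called 143 of 11702 genes (1.22%). Of the 845 genes called in MTAL, 812 were also tested in CTAL. The sign was the same for 689 of them (84.9%, against 62.6% of all genes tested in both), and 103 were called in both, which is 12.2% of the MTAL calls and 72.0% of the CTAL calls. The median absolute log2 fold change of the 812 genes was 1.02 in MTAL and 0.29 in CTAL, where the selection on MTAL itself favours MTAL. The difference between the effects in the segments was tested as an interaction over all 18 pools, and 36 of 12586 genes (0.286%) passed, 33 with a higher and 3 with a lower log2 change in MTAL. Leaving out each MTAL pool gave 19 to 570 such genes, the most without cKO 18, and leaving out CTAL WT 1, whose title names both genotypes, gave 20. The other CTAL pools were not left out. *Slc34a2* changed by 2.93 in MTAL and 0.62 in CTAL (difference 2.29, adjusted p = 0.00601) and *Tubb2b* by 2.40 and 0.94 (adjusted p = 0.0287). *Tagln2*, *Adamtsl2*, a matrix glycoprotein, and *Slc22a17* rose in MTAL and changed by 0.24, -0.39 and 0.24 in CTAL (adjusted p of the difference 0.0134, 0.0134 and 0.0134), and *Gpx6* fell more in MTAL (difference -0.72, adjusted p = 0.00788). By contrast, *Cldn10* itself fell by 1.75 in MTAL and 1.55 in CTAL, and the difference did not pass the test (adjusted p = 0.656). The study had chosen cKO pools of both segments on this level and left out a cKO CTAL pool whose *Cldn10* resembled WT.

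**Figure D5:**
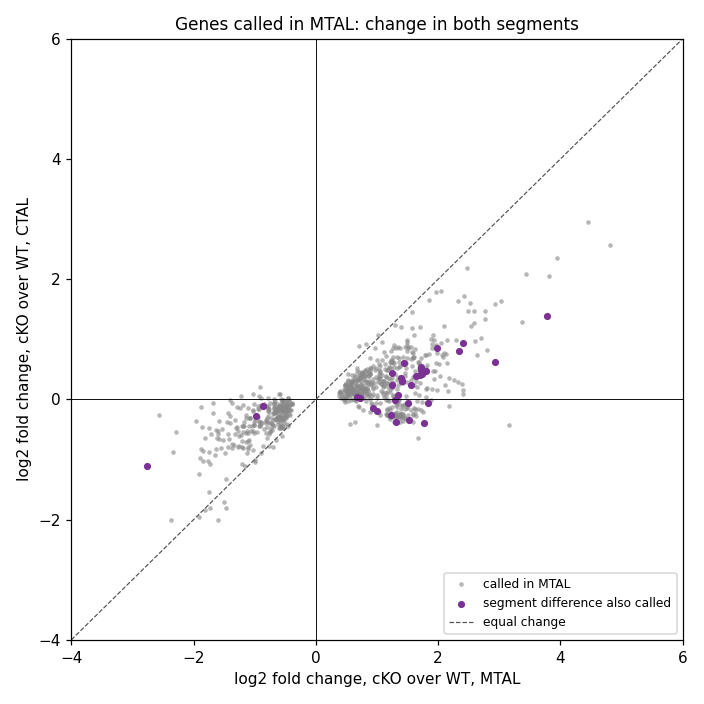
Each point is 1 of the 812 genes called in MTAL and tested in CTAL, with its log2 fold change (cKO over WT) in MTAL on the horizontal and in CTAL on the vertical axis, purple where the difference between segments also passed the test, and the dashed line marks equal change. The spread is wider along the horizontal axis, the median size being 1.02 in MTAL and 0.29 in CTAL.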

How the data were processed

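Poly-A RNA of tubule pools was sequenced from strand-specific libraries. Per the labels and the study's methods, reads were quality-checked and trimmed, aligned to mm10 and counted with DRAGEN, with Picard metrics as a check. Whether strand was used in counting and how multi-mapped reads were divided is not given in the sources used here. The authors deposited estimated counts per gene (6.80 to 9.08% of genes had decimals in MTAL pools), which were rounded to whole numbers here, and TPM values. Samples were grouped by their labels, and each pool came from 1 animal per the study's methods, so p-values measure the spread between animals and pools together.

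Genes that reached 3 CPM in 3 or more of the 8 MTAL pools were tested with edgeR 4.0.16 (TMM factors, quasi-likelihood F test, Benjamini-Hochberg adjustment over all 12060 genes, R 4.3.3), and called at an adjusted p under 0.05. CPM values in the text are scaled to the library total and TMM factor, those of the filter to the total alone. CTAL and the segment interaction were fitted in the same way (CTAL: 3 CPM in 5 of 10 pools). Alternatives used DESeq2 1.42.0, limma 3.58.1 on log2(TPM + 1), other filters and scalings, a term for pools with 3 CPM or more of *Xist*, and each pool left out. The fits were tested on simulated data. Pairs of pools in a group differed beyond counting noise (chi-square per gene 34.8 to 207, r of log2 CPM 0.939 to 0.978).

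Named are *Cldn10*, the 15 protein-coding genes that rose most and the 10 that fell most among those called with a 2-fold change and no overlap (leaving out predicted genes named Gm, Rik or -ps), up to 8 called members of each gene list by p with its best known uncalled members, and up to 3 called genes per biotype by p. *C1qtnf5* and the genes with the pool pattern of *Xist* were chosen after their values were seen. Some genes that the rule names are not reported here. Members and lists were chosen with earlier results of these data and the study's supplementary tables known. Gene positions are those of the GRCm38 annotation, which matched 99.5% of gene identifiers, and promoters come from RefSeq (GRCm38.p6).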

Additional observations from a re-analysis of the deposited data

Results flagged for a closer look

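In 97 sets of 5 WT pools (named genes and summed lists), 12 had 1 pool far from the other 4 by Dixon's criterion, where chance marks about 1 in 20. WT 13 stood apart for *Cldn14* (5.03 CPM), *Psca* (2.24 CPM) and *Bdkrb2* (1.78 CPM) and for the summed erythrocyte markers (28.8 CPM). WT 17 stood apart for *Sema3d* (8.11 CPM), iron handling genes (2158 CPM in sum) and collagens (1061 CPM). WT 11 stood apart for *Zfp366* (20.1 CPM), principal cell markers (416 CPM) and immediate early genes (8879 CPM), WT 15 for Fox genes (1283 CPM) and WT 19 for sex-linked genes (96.8 CPM).

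The effect of the knock-out differed between MTAL and CTAL by the interaction test for 19 of the genes named or listed. Among them, the log2 change was higher in MTAL by 3.07 for *Psca*, 2.37 for *Wnt10a*, 2.29 for *Slc34a2*, 2.14 for *Adamtsl2*, 1.88 for *Foxq1*, 1.84 for *Spi1*, 1.53 for *Pth1r*, 1.47 for *S100a6*, 1.44 for *Tubb2b*, 1.31 for *Slc22a17*, 1.30 for *Ggt1*, 1.29 for *Tmsb10*, 1.23 for *Cldn16*, 0.99 for *Tagln2*, 0.78 for *Tubb2a* and 0.61 for *Umod*. It was lower in MTAL for *G6pc* (-1.67) and *Gpx6* (-0.72). For *Spi1*, *Tmsb10* and *S100a6*, cKO 16 was the highest MTAL pool, and its part in these differences was not tested.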

How the results depend on the processing

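The 845 calls in MTAL (535 higher, 310 lower) were 1399 (818, 581) without a filter on low counts, 1304 (833, 471) with edgeR's likelihood ratio test, 1359 (852, 507) with DESeq2's likelihood ratio test, 1368 (829, 539) with its Wald test, 317 (285, 32) with limma on log2(TPM + 1), 2136 (1305, 831) in a fit of all 18 pools and 47 (30, 17) with the term for *Xist*. At 2-fold or more, the 451 calls (325, 126) were 869 (608, 261) without the filter, 692 (508, 184) with edgeR's likelihood ratio test, 224 (200.0, 24) with limma, 882 (673, 209) with 18 pools and 45 (30, 15) with the *Xist* term. Leaving out each MTAL pool gave 457 to 968 calls (313 to 707 higher, 144 to 285 lower) and 259 to 606 at 2-fold (188 to 495 higher, 71 to 140.0 lower), with the lowest number without cKO 20 for each. The 36 segment differences were 19 to 570 without single MTAL pools, 20 without CTAL WT 1, and the 143 CTAL calls were 188 without CTAL WT 1. Of the 26 named genes, 21 lost their call with the *Xist* term, where their median absolute log2 change was 2.90 against 2.93 without it, none reversed, and 16 kept it under all the others of the 19 alternatives that gave an adjusted p. Of 1344 list medians under alternatives, 122 moved beyond the spread between pools. Without scaling factors 950 genes were called and the median of all genes was 0.07. With limma it was 0.19. The cause of these changes was not tested. In the *Xist* fit, WT 13 was in effect the only WT reference. For *Cldn14*, *Clu* and *Sprr1a*, DESeq2 gave no adjusted p. No paired analysis was made, because the genotypes share no replicate numbers and the labels name no pairs. The 3 cKO pools held 13275232 to 19608753 counts each, which limits the precision for low genes.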

Other observations

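In smaller gene groups, the following members were called in cKO MTAL, beside 4.44% higher and 2.57% lower of all genes. Of 13 serpins 4 were higher and 1 lower. The plasma protease inhibitor genes *Serpina10* and *Serpina1d* rose (1.98 and 1.48), the latter being one of several near-identical copies, and *Serpinf1*, which encodes the antiangiogenic factor PEDF, had the pool pattern of *Xist* (-2.86, adjusted p = 0.0242). *Adamts1* and *Adamtsl2*, matrix proteins of the ADAMTS family, were 2 of 5 tested members and rose by 1.69 and 1.77. *Ier3*, a stress-inducible survival gene, was the sole call among 21 immediate early genes (43.6, 31.1, 20.8, 20.6 and 17.9 CPM in WT and 79.6, 79.2 and 145 CPM in cKO pools, 1.92, adjusted p = 3.93e-04), and *Sfn*, the 14-3-3 sigma protein, the sole one among 15 p53 targets (1.05).

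Among 24 aldehyde dehydrogenases and aldo-keto reductases, the retinal dehydrogenase *Aldh1a1* and its paralogue *Aldh1a7* rose (1.42 and 1.33), *Akr1b8* rose (1.49) and *Akr1c13* fell (-1.61). In fatty acid synthesis, the desaturases *Scd1* and *Scd2* rose (1.23 and 0.71) and *Acacb*, an acetyl-CoA carboxylase, fell (-0.47). The hemoglobin gene *Hbb-bt* rose (2.17), the sum of the erythrocyte markers being 3.11 to 28.8 CPM in WT and 22.6 to 47.9 CPM in cKO pools.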
